A study of Mus musculus with 6 samples.

Results

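The Bcl2 family of apoptosis regulators was read here through 10 named genes in mouse hybridoma RNA. A hybridoma is a line obtained from the fusion of a lymphocyte and a tumour cell. Members were the probes whose gene symbol in the platform annotation was Bcl2, Bcl2l1, Mcl1, Bax, Bak1, Bcl2l11, Bid, Bad, Bbc3 or Pmaip1. The annotation listed 28 probes for 9 of these genes, out of 19057 genes with a probe on the array. Bax was not analysed here. RNA from 3 samples of an IL-17-producing hybridoma, named S2, was set against RNA from 3 samples of a hybridoma that did not produce IL-17, named DE3. Both lines were grown in RPMI with fetal calf serum, and no treatment is labelled for either. Each group is a single named line, so the comparison is between 2 hybridomas, and whether its 3 samples came from separate cultures is not labelled. All p-values therefore rest on sample-to-sample spread that may be technical.

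Proteins of this family decide whether the outer mitochondrial membrane is opened during apoptosis. Bcl2, Bcl-xL (the product of Bcl2l1) and Mcl1 keep the membrane closed, while Bax and Bak1 form the pores that release cytochrome c. The BH3-only proteins sense stress: Bim (from Bcl2l11), Bid and Puma (from Bbc3) can activate the pore formers, and Bad and Noxa (from Pmaip1) bind and neutralise the protective proteins. In T cells Bim helps to remove activated and self-reactive cells, and Mcl1 and Bcl2 sustain survival at different stages.

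Mean bead signal per array was 399 to 482 in the producing group and 505 to 559 in the non-producing group, and 36.9% to 37.4% of probes against 38% to 39.4% were above background. All arrays carry the number of the same chip, with the groups in separate runs of positions, so the position of an array on the chip cannot be told apart from its group. The labels name no cell lineage. Of 5 tested T cell markers, Cd3d (-1.0 on the log2 scale), Cd3g (-0.67) and Thy1 (-0.47) were lower in the producing hybridoma. Cd247 (0.54) was higher and Cd3e (-0.04) did not pass, each gene on its brightest probe. Cd2 and Cd5 had no probe that could be tested. The other Cd247 probes were at 0.06 and -0.25 and did not pass, and the Cd247 call was lost without non-producing array 1 (limma adjusted p = 0.0595) and under median scaling (0.25, adjusted p = 0.166). Their part in the family's differences was not tested. In bulk RNA, fewer cells with a transcript and less of it per cell cannot be told apart. None of the 4 B cell, 5 myeloid and 6 fibroblast markers with a probe could be tested. The probes of Il17a and Il17f were above background on 0 of the 6 arrays, so these transcripts do not check the group labels.

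The family differed between the hybridomas in both directions. Bcl2 was lower in the producing hybridoma on 3 of its 5 tested probes, by 39.4% to 43.4%. Mcl1, Bak1, Bad, 2 of 3 tested Bcl2l11 probes and 1 of 2 tested Bbc3 probes were higher, by 1.27-fold to 1.58-fold. Bcl2l1 was split, with 1 of 2 tested probes lower, Bid did not pass the test, and Pmaip1 was not above background. Tests covered the probes with detection p-values below 0.05 on 3 or more of the 6 arrays. The hybridomas were compared with limma on log2 normalized intensity, with Benjamini-Hochberg adjustment over all 17445 tested probes.

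Of the 28 family probes, 16 were tested, 3 were above background on 1 array each and 9 on none. Past an adjusted p of 0.05 were 10 of the 16 tested probes, 6 higher and 4 lower in the producing hybridoma. Over all tested probes the share past the threshold was 33.9%, with 17% higher and 16.9% lower. The groups did not overlap in 11 of the 16 family probes, against 47.8% of all tested probes. The median log2 difference was -0.01 over the family probes and 0.00 over all tested probes. Probes of the same gene share their target and are not independent of each other.

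**Figure D1:**
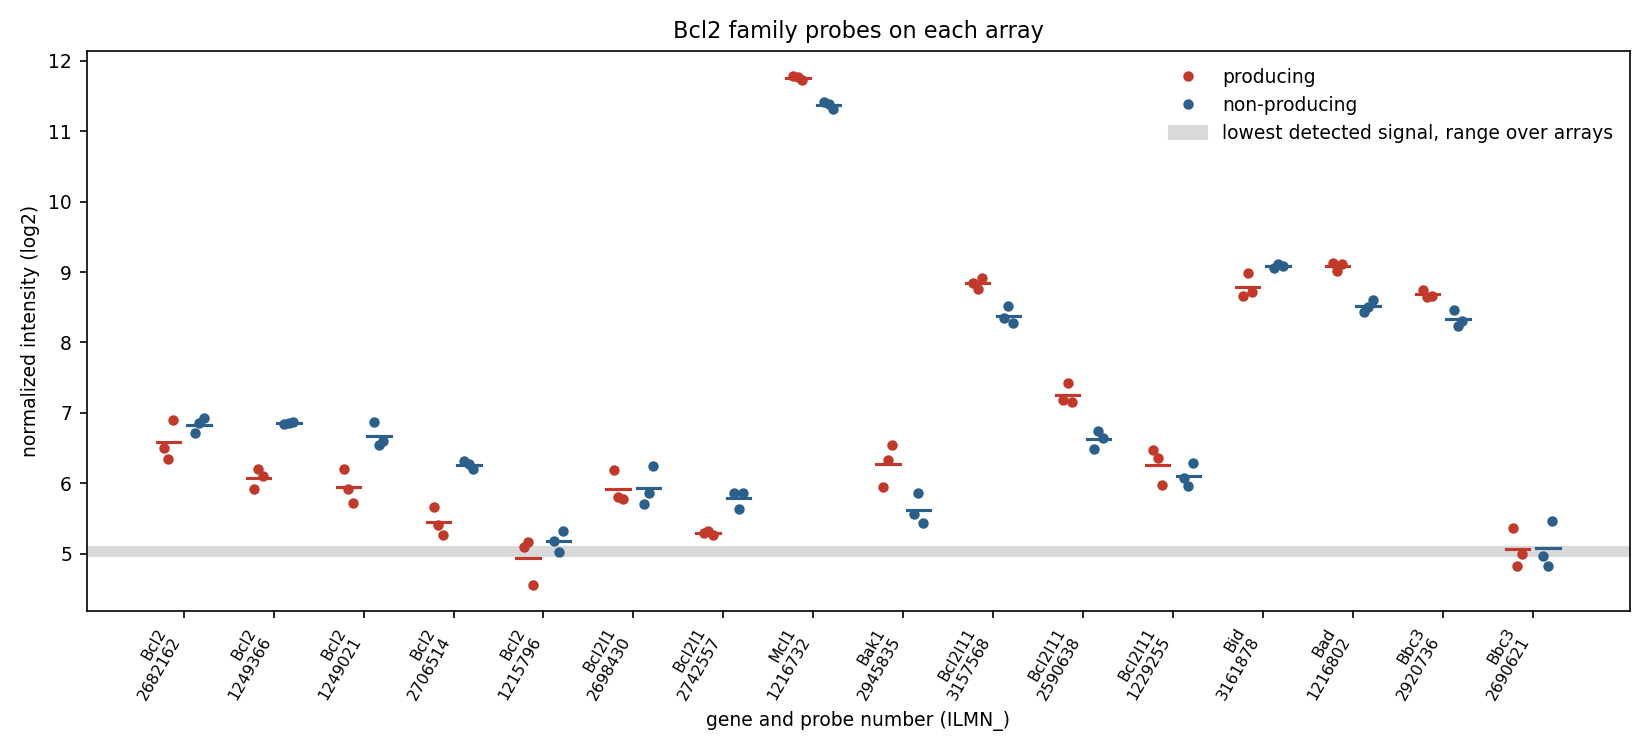
Normalized intensity (log2, vertical axis) of the 16 tested family probes (horizontal axis) on each array, with producing arrays in red to the left and non-producing arrays in blue to the right of each position, group means as short lines, and a grey band for the lowest detected signal of the arrays. The Mcl1 probe read 11.73 to 11.78 on producing arrays and 11.31 to 11.42 on non-producing arrays, and the Bbc3 probe on the far right lay within 1 log2 unit of the grey band in both groups.

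The direction of small differences depended on how the arrays were scaled. Quantile normalization placed the median tested gene at 0.00. Scaling the arrays to a common median instead placed it at -0.23 on the log2 scale, with 862 probes called higher and 5858 lower, where quantile normalization gave 2961 higher and 2945 lower. Differences in the text are from quantile-normalized values. Median scaling ended the calls of Mcl1, Bcl2l11 probe ILMN_3157568, Bad and Bbc3 probe ILMN_2920736, all of them called higher. Their values under median scaling are given beside the gene. When the median-scaled values were centred on the median gene, an alternative chosen after seeing the data, 9 of the 10 called family probes passed.

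Among the protective genes, Bcl2, the founding inhibitor of mitochondrial apoptosis, was lower in the producing hybridoma. Probe ILMN_1249366 read 5.92, 6.21 and 6.11 on the producing arrays, against 6.84, 6.86 and 6.87 on the non-producing arrays. Every producing array was below every non-producing one. The log2 difference was -0.78 ± 0.09 (SE, limma adjusted p = 0.00049), a signal 41.7% lower.

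The other Bcl2 probes gave the following. Probe ILMN_2706514 read 5.67, 5.41 and 5.26 on the producing arrays, against 6.32, 6.28 and 6.20 on the non-producing arrays. Its groups did not overlap, and the log2 difference was -0.82 ± 0.11 (SE, limma adjusted p = 0.00101). The lowest producing value, 5.26, lay close to the lowest detected signals of the arrays, 4.97 to 5.10. Probe ILMN_1249021 read 6.21, 5.92 and 5.72 on the producing arrays, against 6.87, 6.55 and 6.60 on the non-producing arrays. These groups were separate as well, and the difference was -0.72 ± 0.14 (SE, limma adjusted p = 0.00545).

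Not every Bcl2 probe moved this far. Probe ILMN_2682162, the brightest, is annotated to another transcript record of Bcl2 than the 3 probes that fell. It read 6.50, 6.35 and 6.90 on the producing arrays, against 6.71, 6.85 and 6.93 on the non-producing arrays. Producing array 3 reached into the range of the non-producing arrays, and the difference of -0.25 did not pass (95% interval -0.57 to 0.08, limma adjusted p = 0.216). Without producing array 3 it was -0.40 and passed (adjusted p = 0.0255), and under median scaling it was -0.51 and passed (adjusted p = 0.00585).

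Probe ILMN_1215796, annotated to the same transcript record as the 3 probes that fell, was above background on 1 producing and 2 non-producing arrays. Its difference of -0.24 did not pass (95% interval -0.62 to 0.13, limma adjusted p = 0.284). Of the remaining 4 Bcl2 probes, ILMN_2597567 was above background on 1 array and the other 3 on none. The 3 probes that fell passed under all alternatives run, but the size depended on the background correction. On the authors' processed values they differed by -0.51, -0.46 and -0.46 on the log2 scale, for ILMN_1249366, ILMN_1249021 and ILMN_2706514 in that order.

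The sequence before the outermost Bcl2 start is shown because Bcl2 was the member with the most probes past the threshold. It covers 250 bases on the minus strand at chr1:106714291-106714540, from RefSeq with the GRCm38.p6 assembly, written 5′ to 3′ up to the base before the start. Capitals mark the GC box, GGGCGG or its reverse complement, a motif bound by Sp1-type factors.
Bcl2 promoter: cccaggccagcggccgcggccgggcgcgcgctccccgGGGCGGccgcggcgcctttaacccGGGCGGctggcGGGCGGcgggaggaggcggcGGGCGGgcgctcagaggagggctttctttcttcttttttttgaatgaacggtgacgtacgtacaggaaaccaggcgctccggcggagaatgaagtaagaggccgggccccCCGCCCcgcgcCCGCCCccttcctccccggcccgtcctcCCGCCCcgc
The window held 7 GC boxes and 74.8% G and C bases. A GC box on either strand was present in 32.7% of 32851 RefSeq promoter windows of the same length. The match describes the letters only.

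Bcl2l1, which encodes Bcl-xL, gave discordant probes. Probe ILMN_2742557 read 5.29, 5.32 and 5.27 on the producing arrays, against 5.86, 5.64 and 5.86 on the non-producing arrays. The groups were separate, but the producing values lay close to the lowest detected signals of the arrays, 4.97 to 5.10. The log2 difference was -0.50 ± 0.09 (SE, limma adjusted p = 0.00341), and it was -0.25 on the authors' processed values, where it also passed (adjusted p = 0.00927).

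The brighter Bcl2l1 probe, ILMN_2698430, read 6.19, 5.80 and 5.78 on the producing arrays, against 5.70, 5.86 and 6.24 on the non-producing arrays. The ranges lay across each other, with a difference of -0.01 (95% interval -0.38 to 0.36, limma adjusted p = 0.966). Averaged over its 2 tested probes, Bcl2l1 differed by -0.25, which missed the threshold (limma adjusted p = 0.0878). The same averaging left Bcl2 lower by -0.56 (adjusted p = 0.000625) and Bcl2l11 higher by 0.41 (adjusted p = 0.00356). The 2 remaining probes of the gene were not tested, with 1 above background on a single non-producing array. Whether the probes differ from each other was not tested.

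Mcl1, a short-lived protein that lymphocytes need for survival, had a single probe far above background. It read 11.78, 11.77 and 11.73 on the producing arrays, against 11.42, 11.38 and 11.31 on the non-producing arrays. All producing arrays were above all non-producing arrays, and both groups were tight, with SDs of 0.03 and 0.06 (n = 3 each). The log2 difference was 0.39 ± 0.07 (SE, limma adjusted p = 0.00494), or 1.31-fold. Under median scaling it was 0.14 and did not pass (adjusted p = 0.419), and centred on the median gene it was 0.37 (adjusted p = 0.0491). With each chromosome's median difference removed it was 0.58 (adjusted p = 0.00087), as chromosome 3 had a median of -0.19.

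Of the pore formers, only Bak1 was measured here. Its probe read 5.95, 6.33 and 6.55 on the producing arrays, against 5.56, 5.86 and 5.43 on the non-producing arrays. The lowest producing value, 5.95, lay just above the highest non-producing value, 5.86. The log2 difference was 0.66 ± 0.17 (SE, limma adjusted p = 0.0172), or 1.58-fold, the largest fold among the family probes that were higher and also the one with the largest standard error among those past the threshold. The call was lost without non-producing array 1 (0.63, adjusted p = 0.0543) or 3 (0.57, adjusted p = 0.0603), and with no detection filter (adjusted p = 0.0591). On the authors' processed values the difference was 0.38 and passed (adjusted p = 0.00536).

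Bak1 lies on chromosome 17, whose tested genes had a median log2 difference of 0.30 (GRCm38.p6 gene order). Of its 4 nearest tested neighbours, Cuta (0.74), Zbtb9 (0.52) and Itpr3 (0.54) were higher in the producing hybridoma and Uqcc2, at 0.17, did not pass. With chromosome medians removed Bak1 was at 0.35, short of the threshold (limma adjusted p = 0.149). The part of chromosomal position in the Bak1 difference was not tested beyond this.

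Among the BH3-only genes, Bcl2l11, which encodes Bim, was higher in the producing hybridoma on 2 of its 3 tested probes. Probe ILMN_2590638 read 7.18, 7.43 and 7.15 on the producing arrays, against 6.49, 6.74 and 6.65 on the non-producing arrays. The groups did not overlap, and the log2 difference was 0.63 ± 0.11 (SE, limma adjusted p = 0.00281), or 1.54-fold. It passed under all alternatives run, median scaling included (0.36, adjusted p = 0.0486).

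The brightest Bcl2l11 probe, ILMN_3157568, read 8.84, 8.76 and 8.92 on the producing arrays, against 8.35, 8.52 and 8.27 on the non-producing arrays. All producing arrays were higher, with a difference of 0.46 ± 0.09 (SE, limma adjusted p = 0.00648). Under median scaling it was 0.17 and did not pass (adjusted p = 0.308), and centred on the median gene it was 0.40 (adjusted p = 0.0295). Probe ILMN_1229255, annotated to the same transcript record, read 6.47, 6.36 and 5.97 on the producing arrays, against 6.08, 5.96 and 6.29 on the non-producing arrays. Its groups overlapped, and the difference of 0.16 did not pass (95% interval -0.17 to 0.49, limma adjusted p = 0.437). The fourth probe was above background on no array.

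The sequence before the outermost Bcl2l11 start is shown because Bcl2l11 had the most probes past the threshold among the members that were higher. It is on the plus strand at chr2:128125788-128126037 (RefSeq, GRCm38.p6), 250 bases written 5′ to 3′. Capitals mark GC boxes, a forkhead core (GTAAACA) and a CCAAT box (CCAAT, here on the opposite strand as ATTGG).
Bcl2l11 promoter: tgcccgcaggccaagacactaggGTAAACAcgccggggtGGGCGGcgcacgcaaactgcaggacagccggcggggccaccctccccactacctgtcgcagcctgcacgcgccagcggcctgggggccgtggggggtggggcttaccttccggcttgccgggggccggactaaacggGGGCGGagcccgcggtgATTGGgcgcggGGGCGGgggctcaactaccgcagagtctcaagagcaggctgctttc
The window held 3 GC boxes, 1 forkhead core and 1 CCAAT box. The window at another Bcl2l11 start, not shown, held 2 GC boxes, 0 forkhead cores and 2 CCAAT boxes. A window of Bbc3 also held 1 forkhead core. On either strand a forkhead core was present in 3.17% and a CCAAT box in 33.8% of all windows. Forkhead factors of the Foxo group are known to activate Bcl2l11. Here Foxo1 and Foxo3 RNA was lower in the producing hybridoma, by -0.80 ± 0.09 and -0.54 ± 0.08 on the log2 scale (SE, limma adjusted p = 0.000501 and 0.00122). Any part of these factors in the Bcl2l11 difference was not tested.

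Bad, whose product binds Bcl2 and Bcl-xL unless it is phosphorylated, had a single probe. It read 9.13, 9.02 and 9.11 on the producing arrays, against 8.43, 8.51 and 8.60 on the non-producing arrays. The groups were well apart, with a difference of 0.57 ± 0.08 (SE, limma adjusted p = 0.00124), or 1.48-fold. Under median scaling it was 0.28 and did not pass (adjusted p = 0.0777), and centred on the median gene it was 0.51 (adjusted p = 0.00597).

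Bad lies on chromosome 19, where the median difference was 0.31. Its neighbours Esrra (0.51), Plcb3 (0.54) and Ppp1r14b (0.56) were also higher, and Gpr137, at 0.24, did not pass. With chromosome medians removed Bad was at 0.26, with an adjusted p of 0.0443. For Bcl2, Bcl2l1, Mcl1, Bcl2l11 and Bbc3, 0 or 1 of the 4 nearest tested neighbours passed in the member's own direction. Those that did were Tnfrsf11a (-0.42) near Bcl2, H13 (-0.23) near Bcl2l1 and Acoxl (0.65) next to Bcl2l11. Near Mcl1, Ecm1 (-0.58) passed in the other direction. Of the 4 neighbours of Bid, 2 were higher and 1 was lower. Over all tested genes 18.1% were higher and 18.6% lower.

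The Bad window is shown as a second gene that was higher. It is on the plus strand at chr19:6941611-6941860 (RefSeq, GRCm38.p6), 250 bases written 5′ to 3′, with GC boxes in capitals.
Bad promoter: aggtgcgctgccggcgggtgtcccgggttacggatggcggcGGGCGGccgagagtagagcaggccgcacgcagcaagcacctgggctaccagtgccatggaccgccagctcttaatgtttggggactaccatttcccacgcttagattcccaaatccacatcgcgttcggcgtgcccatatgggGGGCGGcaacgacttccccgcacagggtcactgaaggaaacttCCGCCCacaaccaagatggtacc
It held 3 GC boxes and no forkhead core. The other motifs searched on both strands, an E-box (CACGTG) and a STAT core (TTCNNNGAA), were in none of the 3 windows shown, against 6.02% and 7.02% of all windows.

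Bbc3, which encodes Puma, was higher on its brightest probe. Probe ILMN_2920736 read 8.74, 8.65 and 8.66 on the producing arrays, against 8.46, 8.23 and 8.31 on the non-producing arrays. The groups did not overlap, and the difference was 0.35 ± 0.09 (SE, limma adjusted p = 0.0152), or 1.27-fold, the smallest among the family probes past the threshold that were higher.

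The Bbc3 call was lost without producing array 1 (0.32, limma adjusted p = 0.0537) or non-producing array 2 (0.30, adjusted p = 0.0562) or 3 (0.34, adjusted p = 0.0505). It was also lost under median scaling, at 0.06 (adjusted p = 0.745), or 0.30 centred on the median gene (adjusted p = 0.128). Probe ILMN_2690621 was above background on 1 producing and 2 non-producing arrays and differed by -0.02 (95% interval -0.45 to 0.42, adjusted p = 0.953). Averaged over its 2 tested probes, Bbc3 differed by 0.17 and the call was lost (adjusted p = 0.304). The third probe was above background on 1 producing array only.

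Bid, which caspase-8 cleaves to link death receptors to the mitochondria, had 1 tested probe of 2. It read 8.66, 8.99 and 8.72 on the producing arrays, against 9.05, 9.11 and 9.08 on the non-producing arrays. The groups did not overlap, but producing array 2 came close to the non-producing values, and the difference of -0.29 ± 0.10 did not pass (SE, limma adjusted p = 0.0573). It passed without producing array 2 (-0.39, adjusted p = 0.0157), on the authors' processed values (-0.26, adjusted p = 0.021) and under median scaling (-0.58, adjusted p = 0.00552). Adjusted over genes, with the tested probes of each gene averaged, Bid passed at -0.29 (adjusted p = 0.0444).

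Pmaip1, which encodes Noxa, was above background on no array with any of its 3 probes. Their normalized intensities ran from 4.31 to 4.79 in the producing group and from 4.27 to 4.67 in the non-producing group, and the lowest detection p-value was 0.149. No fold is given because both groups were at background.

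**Figure D2:**
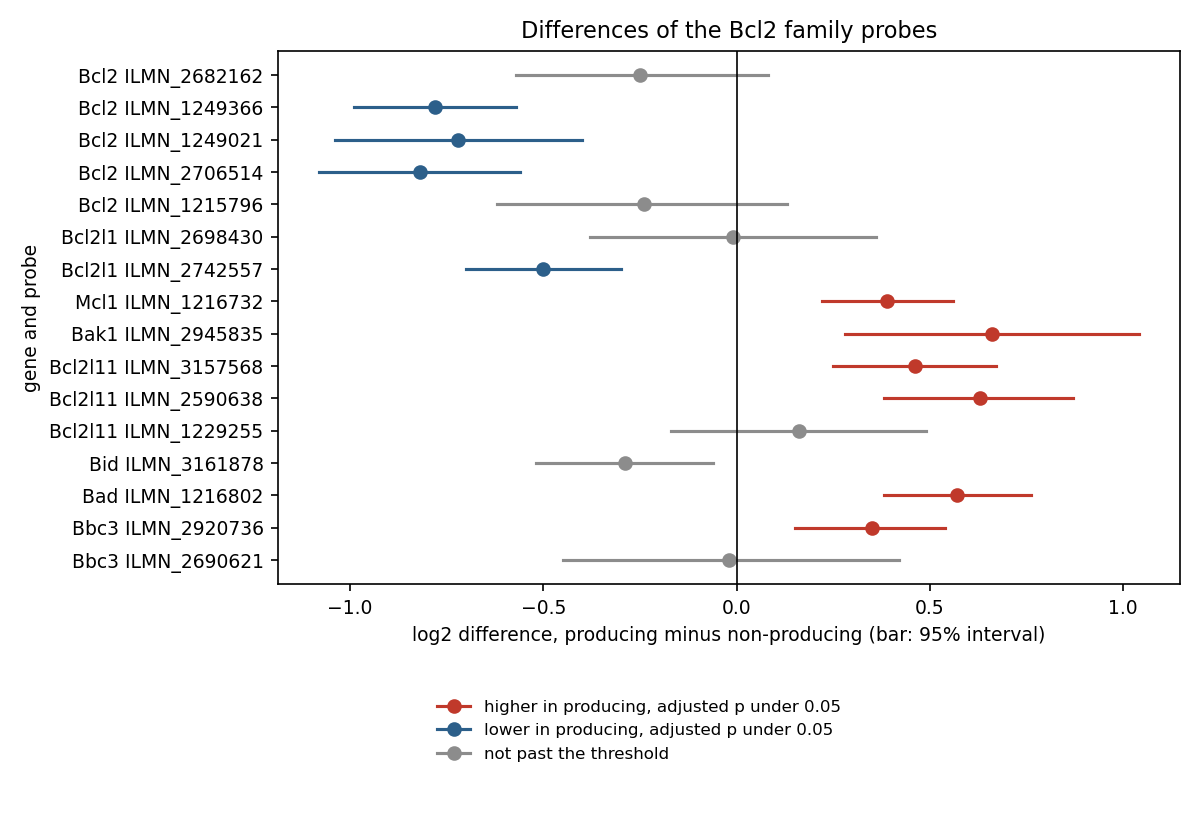
Log2 difference, producing minus non-producing (horizontal axis), of the 16 tested family probes (vertical axis) with 95% intervals from limma as bars, red for the 6 probes that were higher, blue for the 4 that were lower and grey for the 6 that did not pass. The 3 Bcl2 probes in blue lie between -0.82 and -0.72, and the probes in red between 0.35 and 0.66.

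By signal profile over the 6 arrays, taken as log2 value minus the probe's mean, the genes nearest to Bad were Fibp, Elovl1 and Fermt3, at root mean square distances of 0.017, 0.022 and 0.035 log2 units. Nearest to Bcl2 probe ILMN_1249366 were Isg20, Uaca and Foxn3 (0.041 to 0.047), and to probe ILMN_2706514 Bmi1, Sesn3 and Rtl6 (0.043 to 0.056). For probe ILMN_1249021 they were Fbxo30, Rfxap and Rab33b (0.087 to 0.090). The nearest to Bcl2l1 probe ILMN_2742557 were Bbs9, Inppl1 and Serf1 (0.034 to 0.047), to Bcl2l11 probe ILMN_2590638 Nfx1, Rab27a and Zfp597 (0.065 to 0.076), and to Bak1 Usp25, Fam169b and 4833439L19Rik (0.091 to 0.123). All profiles share the same 6 arrays, and the difference between the groups is part of each distance.

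Other genes of the pathway were counted from their brightest tested probe. For several called genes, among them Bok, Bcl2l12, Diablo, Akt2 and Dynll2, 1 probe of 2 was tested. Over all 9395 tested genes 36.7% passed, 18.1% higher and 18.6% lower. Of the 64 tested pathway genes, 23 passed (35.9%), 14 higher and 9 lower, with a median log2 difference of 0.07 against 0.00 over all tested genes. Of the 14 that were higher, 2 (Casp9 and Sesn1) passed under median scaling and 8 when that was centred on the median gene. Bcl2l13 and Diablo, higher here, were each at -0.04 under median scaling. Of the 9 that were lower, 9 and 6 did.

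Of the other Bcl2 family genes, 7 of 15 with a probe were tested, 4 were higher, 1 was lower and 2 did not pass. Bik, a BH3-only gene, was higher by 0.46 ± 0.07 on the log2 scale (SE, limma adjusted p = 0.00211), with a producing mean of 8.43 ± 0.03 against a non-producing mean of 7.97 ± 0.05 (SD, n = 3 each). Bok, a relative of the pore formers, was above background on 0 of 3 producing arrays and 3 of 3 non-producing arrays, and its signal was lower by at least 1.37-fold. That bound sets the non-producing mean against the lowest detected signal of the producing arrays. It met the detection filter through the non-producing arrays alone, which favours this direction, so its count among the lower genes is a description and no p is given.

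Smaller increases were those of Bcl2l12 (0.39), the mitophagy receptor gene Bnip3l (0.30) and Bcl2l13 (0.24, other probe -0.10 and not past). Bcl2l2, which encodes the protective Bcl-w, was at -0.05 on its brightest probe and did not pass, and of its other probes 1 was lower, by -0.39 (limma adjusted p = 0.0205). Bcl2a1b was at 0.19 and did not pass, and it is nearly identical to other Bcl2a1 genes, so which of them its probe reads is uncertain. Bcl2l13 lost its call whichever array was left out (limma adjusted p 0.0606 to 0.137). Bcl2l12 did so without producing array 1 or 3 or non-producing array 1 or 2 (0.0767 to 0.108), and Bnip3l without producing array 1 or 2 or non-producing array 2 or 3 (0.124 to 0.141).

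Downstream of the pore, Casp9, the caspase that the apoptosome activates, had the largest difference of the release genes. Of its 4 probes, 1 was tested. The producing mean was 8.21 ± 0.07 against a non-producing mean of 7.23 ± 0.05 (SD, n = 3 each), higher by 0.98 ± 0.08 on the log2 scale (SE, limma adjusted p = 6.30e-05), and it passed under median scaling (0.70, adjusted p = 0.00111). Chromosome 4, where it lies, had a median of 0.27, and with chromosome medians removed Casp9 was at 0.71 (adjusted p = 0.000402). Apaf1 (0.12), the scaffold of the apoptosome, and Cycs (0.01), which encodes cytochrome c, did not pass.

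In all, 10 of the 12 apoptosome and release genes with a probe were tested, 3 were higher, 3 lower and 4 did not pass. Aifm1 (0.30), a mitochondrial flavoprotein, and Diablo (0.24), an antagonist of apoptosis inhibitors, were higher. The channel gene Vdac3 (-0.30), the inhibitor gene Birc2 (-0.28, with 1 of its other 3 probes also lower) and the protease gene Htra2 (-0.26, all 3 probes) were lower. The less bright Htra2 probes were at -0.45 and -0.37 (limma adjusted p = 0.00232 and 0.0101). Leaving out 1 array was followed on the brightest probe of each gene only. On that probe Diablo and Htra2 lost their calls whichever array was left out (limma adjusted p 0.0565 to 0.116 and 0.0573 to 0.126). Birc2 lost it in every case but the removal of non-producing array 1 (0.0532 to 0.128). Aifm1 lost it without producing array 2 or 3 or non-producing array 3 (0.0581 to 0.0649), and Vdac3 without producing array 1 or non-producing array 2 (0.0574 and 0.0624). No Xiap probe met the detection filter.

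On the death receptor route that leads to Bid, 6 of 7 genes were tested. Fadd, the adaptor that recruits caspase-8, was lower on all 4 probes, by -0.52 to -0.32 on the log2 scale. Its brightest probe had a producing mean of 10.16 ± 0.08 against a non-producing mean of 10.62 ± 0.02 (SD, n = 3 each, limma adjusted p = 0.003). Cflar, the inhibitor of caspase-8 known as c-FLIP, had 1 tested probe of 3. It was higher by 0.51 ± 0.08 (SE, limma adjusted p = 0.00217), and was at 0.21 under median scaling (adjusted p = 0.201). Tnfrsf10b, the mouse TRAIL receptor gene, was higher by 0.49 on its brightest probe, lower by -0.38 on another, and at -0.06 on the remaining one, which did not pass. Tnfrsf1a (0.20) and Casp8 (-0.22, limma adjusted p = 0.0836) did not pass, and no Fas probe met the detection filter. Tradd, a receptor adaptor, did not pass on its brightest probe (0.15) and was higher by 0.54 on its other one (limma adjusted p = 0.0178).

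Of 6 tested transcription factors that act on the family, 2 were lower, Foxo1 (1 tested probe of 2) and Foxo3 (1 of 3). The producing mean of Foxo1 was 8.12 ± 0.15 against a non-producing mean of 8.92 ± 0.05 (SD, n = 3 each). That of Foxo3 was 6.94 ± 0.06 in producing and 7.48 ± 0.05 in non-producing arrays. Myc (0.19), Ddit3 (0.15), E2f1 (-0.04) and Stat5a (-0.08) did not pass. Trp53 was not analysed here.

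Bbc3, Bax and Pmaip1 are known targets of p53. Of 14 other p53 target genes tested, 2 were higher, 2 lower and 10 did not pass, or 28.6% past the threshold against 36.7% of all genes. Sesn1, a stress-induced inhibitor of mTORC1, was higher by 0.71 ± 0.07 on the log2 scale (SE, limma adjusted p = 0.000209), on all 3 probes. Zmat3, an RNA-binding protein, was lower by -1.04 ± 0.10 (SE, adjusted p = 0.000158) and Phlda3, an inhibitor of Akt signalling, by -0.65 ± 0.09 (SE, adjusted p = 0.000847).

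Sesn2 was higher by 0.39 with an adjusted p of 0.0473 (limma), a call lost on leaving out each array but producing array 1 (0.0768 to 0.138) and with chromosome medians removed (0.12, adjusted p = 0.525). Cdkn1a, which encodes the cell cycle inhibitor p21, was at 0.13 and Mdm2 at -0.15, and neither passed, though 1 other Mdm2 probe was lower by -0.27. Ccng1 was at -0.03 on its brightest probe and did not pass, while its other 2 probes were lower, by -0.87 and -0.73. Trp53inp1 (0.22) and Aen (-0.24) also did not pass on their brightest probes, and each had another probe past the threshold, at 0.58 and -0.29 in that order.

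The last list holds genes whose products modify or bind family members. Of 21 tested kinases, phosphatase, adaptor and ubiquitin enzyme genes, 3 were higher, 0 lower and 18 did not pass, or 14.3% past the threshold against 36.7% of all tested genes, a difference that was not tested. Gsk3b, counted as not past at 0.30, had another probe that was higher by 0.34 (limma adjusted p = 0.0433). Dynll2, a dynein light chain that binds the BH3-only protein Bmf, was higher by 0.42 ± 0.10 (SE, limma adjusted p = 0.012). Akt2, a kinase that can phosphorylate Bad, was higher by 0.47 and above background on 3 producing and 2 non-producing arrays. Mapk8, which encodes the kinase JNK1, was higher by 0.35 on its brightest probe and by 0.37 on its other tested one (limma adjusted p = 0.0328). Under median scaling all 3 missed the threshold (0.14, 0.33 and 0.11 on the log2 scale, in that order). Leaving out non-producing array 1 or 3 ended the Akt2 call (limma adjusted p 0.0576 and 0.0626). Leaving out producing array 3 or non-producing array 1 or 2 ended that of Mapk8 on its brightest probe (0.0512 to 0.0559).

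**Figure D3:**
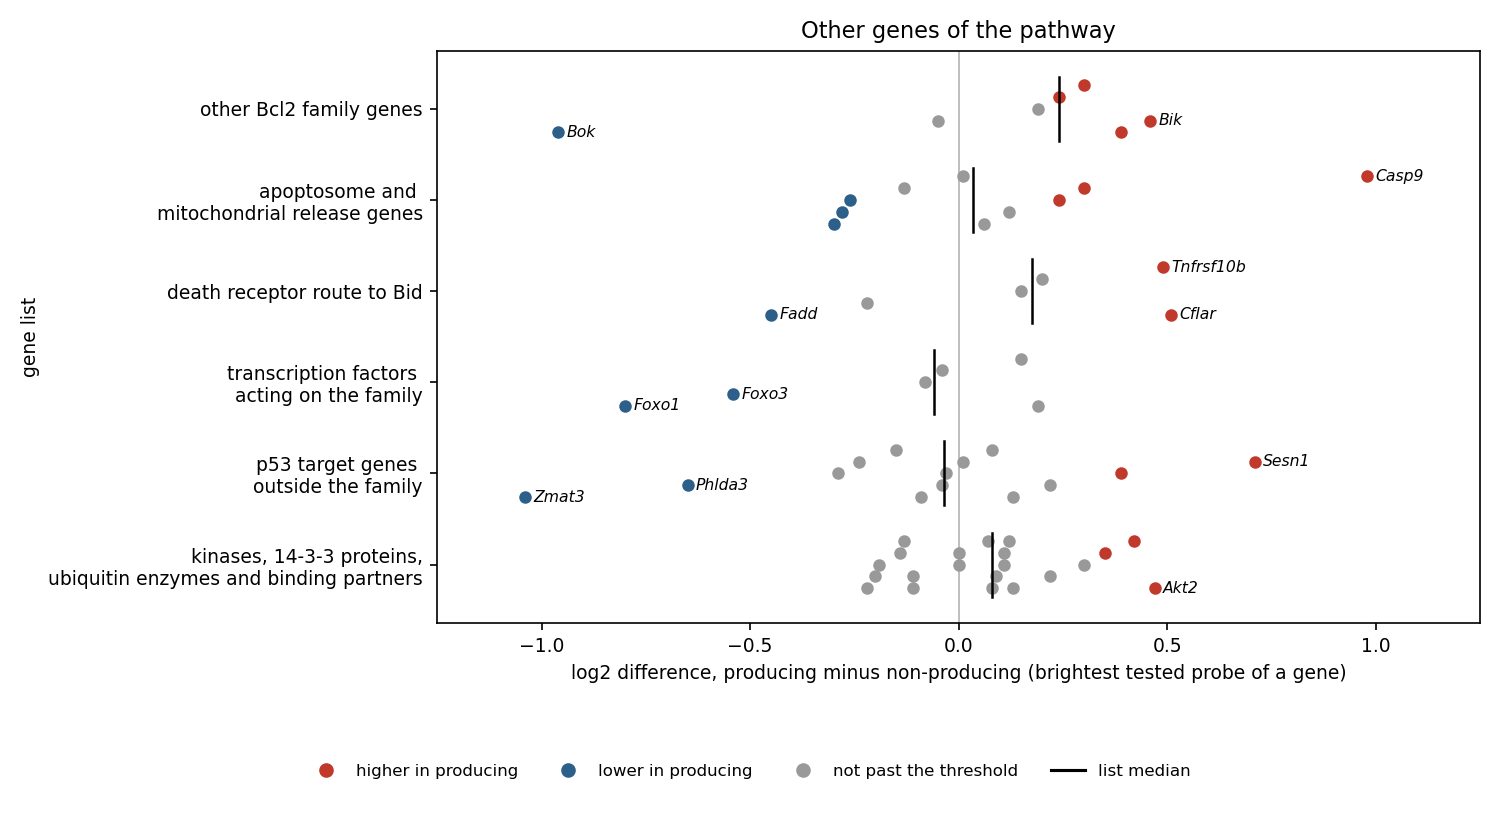
Log2 difference, producing minus non-producing, of the brightest tested probe (horizontal axis) for genes of the 6 pathway lists (vertical axis), with genes higher in the producing hybridoma in red, lower in blue, not past the threshold in grey, and list medians as black lines. Casp9 lies furthest to the right at 0.98, Zmat3 furthest to the left at -1.04, and the list at the bottom has 18 of its 21 genes in grey.

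**Figure D4:**
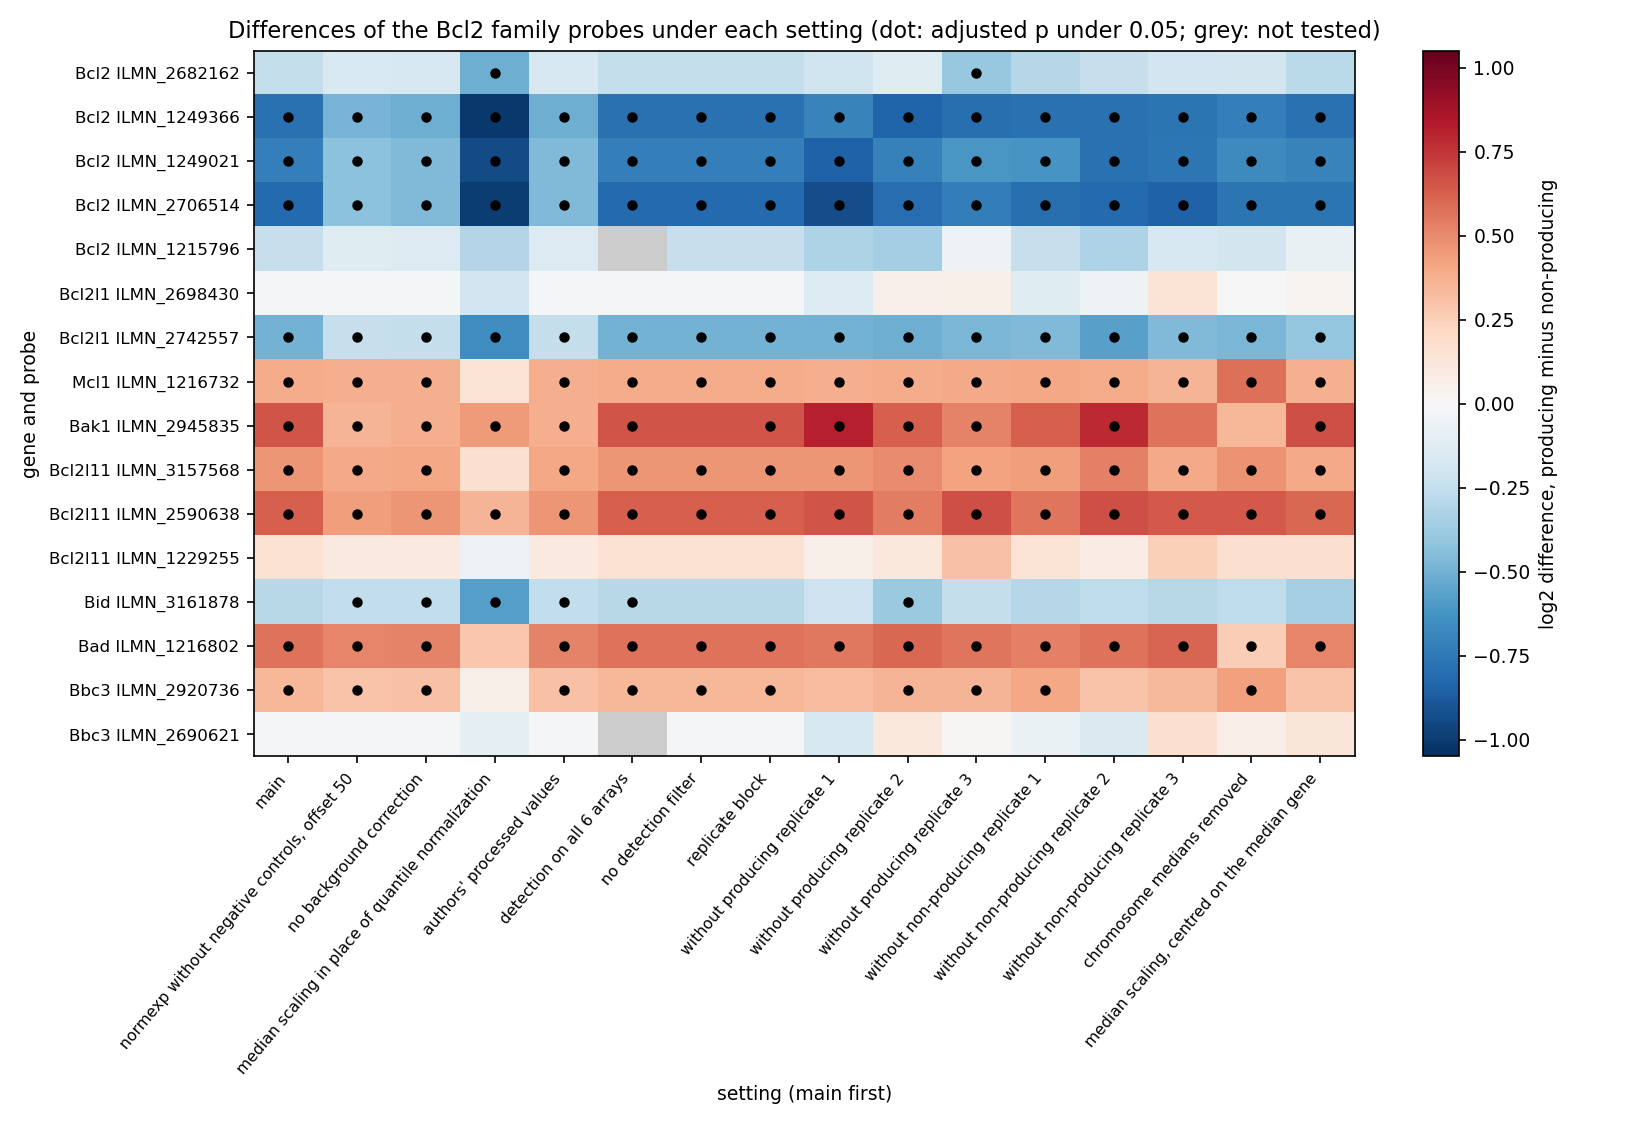
Log2 difference, producing minus non-producing (colour scale), of each tested family probe (vertical axis) under the main setting and each alternative (horizontal axis), with a dot where the adjusted p was under 0.05 and grey where the probe was not tested. The 3 Bcl2 probes that fell, Bcl2l1 probe ILMN_2742557 and Bcl2l11 probe ILMN_2590638 have a dot in every column, while Bak1 and the brighter Bbc3 probe have several columns without one.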

How the data were processed

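RNA of 6 hybridoma samples was measured on Illumina bead arrays of 45281 probes. The authors deposited the average bead signal intensity without normalization, with a detection score that rises with signal and was taken to be 1 minus that probe's detection p-value. The authors' second deposited table holds intensity quantile normalized over all probes, as found from its values. Neither scanner software nor background setting is given in the sources used here. Of the per-sample columns, 0 matched no sample.

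Background correction with negative controls inferred from detection p-values (offset 16), quantile normalization and log2 followed limma 3.58.1 (neqc) in R 4.3.3. The fit used lmFit and eBayes with group as its single term, tests were two-sided, and 95% intervals are unadjusted. The fit was also run on simulated data with independent noise, which does not test the normalization or the calls made here. The number of arrays limits the precision. Gene names came from the platform annotation (34885 probes with 1 symbol, 18 with several, 10378 not listed in the tables used here). RefSeq promoter entries matched 9 of 10 members. Alternatives covered background, scaling, the authors' values, the detection filter, the replicate number as a block, left-out arrays and chromosome medians (chromosomes with at least 20 tested genes).

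Members and lists were chosen with earlier results of these data known. All members were named, and in other lists up to 6 genes past the threshold, or the whole list where 6 or fewer were tested. Further list genes and the remaining probes of a gene were picked after their values were seen.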

Additional observations from a re-analysis of the deposited data

How the results depend on the processing

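The number of family probes past the threshold was 8 to 11 under the alternatives, against 10 in the reported setting. The 8 under median scaling included Bcl2 probe ILMN_2682162 and Bid, which were not called in the reported setting. The number of all probes past the threshold was 4362 to 6720, against 5906. The number of pathway genes past the threshold, 23 in the reported setting, was 15 to 17 with 1 array left out (15 without producing array 3 or non-producing array 2 or 3) and 14 when median-scaled values were centred on the median gene. None of the 10 called family probes changed direction under any alternative. Uncalled probes that did were Bcl2l1 probe ILMN_2698430 and Bbc3 probe ILMN_2690621, which ranged from -0.14 to 0.14 and from -0.17 to 0.17 on the log2 scale when 1 array was left out, and were above 0 without producing array 2 or 3 or non-producing array 3. They were at 0.00 and 0.07 with chromosome medians removed, and at 0.03 and 0.13 with median-scaled values centred. Bcl2l11 probe ILMN_1229255 was at -0.06 under median scaling. The cause was not tested.

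Replicate numbers did not pair the arrays: deviations of same-numbered arrays correlated at -0.0434, -0.164 and 0.0877 for numbers 1, 2 and 3, and 1 of 6 arrays correlated best with its own number. With the replicate number as a block, 5176 probes, 10 family probes and 18 pathway genes passed. Probes near background, as those of Pmaip1, allow no statement on a difference.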
